A study of Mus musculus with 6 samples.

Results

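The genes described here are the mouse netrins, semaphorins, ephrins and Slits, the axon and vessel guidance cues, with their receptors. They were chosen by gene symbol alone, as every row whose name fits the pattern of a semaphorin, plexin, EphA or EphB receptor, ephrin-A or ephrin-B ligand, netrin, Unc5 receptor, Slit or Robo, together with Dcc and Neo1. These patterns matched 70 of the 25701 genes listed, in 10 classes, and 65 of the 70 had a mean of at least 10 and were among the 15372 genes tested. The members left untested for low values were Epha3, Epha5, Epha6, Ntn5 and Plxnb3. Each class had at least 3 members with a mean of at least 10.

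PolyA RNA was sequenced in bulk from 6 libraries of CP cells (cardiac progenitor stage) made from 46C, a mouse ESC line. The 3 control libraries are 46C-Ctrl, cells of that line with the Zhx1 gene intact. The other 3 libraries are labelled Zhx1-KO and come from 1 knockout line, made from the same ESCs with a pair of CRISPR guides at the start and the stop of Zhx1, a zinc finger and homeobox gene. The labels name no treatment, and the comparison asks which transcripts differ at the CP stage between libraries with these labels.

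Guidance cues steer growing axons, migrating cells and sprouting vessels by attraction or repulsion. Secreted netrins act through Dcc, Neo1 and the Unc5 receptors, and Slits through Robos. Semaphorins act through plexins (class 3 semaphorins with neuropilins as co-receptors). Ephrins act through Eph receptor tyrosine kinases, where ligand and receptor both sit on cell membranes. In the embryo the same families shape the heart outflow tract, the vessels and the segmental boundaries of mesoderm.

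The deposited values are normalized counts, that is gene counts divided by 1 factor per library. Differences were tested with limma on log2(value + 1), a scale that understates the change of low genes, and a gene was called higher or lower at an adjusted p under 0.05. Levels of different genes are compared only per kilobase (kb) of merged exon. This length joins the exons of every annotated transcript of a gene, so it can exceed that of any 1 transcript. Ranks and shares per kb carry this limit. Depth, as the sum of each library in units of its smallest value, ran from 13769967 to 15940874. The replicate 46C-Ctrl 2 stood apart: its chi-square per gene was 17.2 and 18.4 against the other controls, which differed from each other by 5.84, and its mitochondrial share was 2.77%, while the others had 1.72% to 1.87%. The Zhx1 transcript, counted over the whole gene, did not settle the labels, with 460, 181 and 457 in 46C-Ctrl and 225, 325 and 308 in Zhx1-KO (log2 fold change -0.25, SE 0.35, adjusted p = 0.579 in the limma fit). Permuting these 6 values exactly, two-sided, gave p = 0.6, where the smallest possible is 0.1. Leaving out 46C-Ctrl replicate 2 moved it to -0.70 (adjusted p = 0.0113 in the limma fit). The paper reports the knockout in the ESCs by PCR and at the mRNA and protein level. Zhx1 counts remained in all 3 libraries labelled Zhx1-KO, which goes against a loss of the whole transcript. A whole-gene count can also hold reads from outside the deleted part, so it cannot decide whether the deletion is present. The groups are therefore called by their labels, and every direction below is between libraries so labelled.

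Of the 65 guidance genes tested, 21 were higher and 22 lower in Zhx1-KO, while over all genes 25.6% were called higher and 26.4% lower. Together 66.2% of the guidance genes were called, beside 52.0% of all genes. Their median log2 fold change was 0.09, against 0.01 over all genes, so the calls of the families ran in both directions. Without 46C-Ctrl replicate 2, 22 were higher and 22 lower. Requiring 2-fold or more besides the adjusted p left 16 higher (9.71% of all genes) and 9 lower (7.85% of all genes). In 44 members no Zhx1-KO value overlapped the control range, 22 in each direction, and this held for 60.8% of all genes tested. Of the 36 ligands tested 9 rose, 12 fell and 15 were not called, and of the 29 receptors 12 rose, 10 fell and 7 were not called. In Epha10, Robo4, Dcc, Ntng1, Ntng2 and Sema3g the mean of the control libraries was below 10, so these 6 passed the filter only through Zhx1-KO. All of them except Robo4, which was not called, are among the 21 called higher and the 16 higher at 2-fold or more. The filter left out Epha3, with a mean of 17.5 in 46C-Ctrl and 0 in Zhx1-KO. The counts of higher and lower genes are therefore not on an equal footing.

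**Figure D1:**
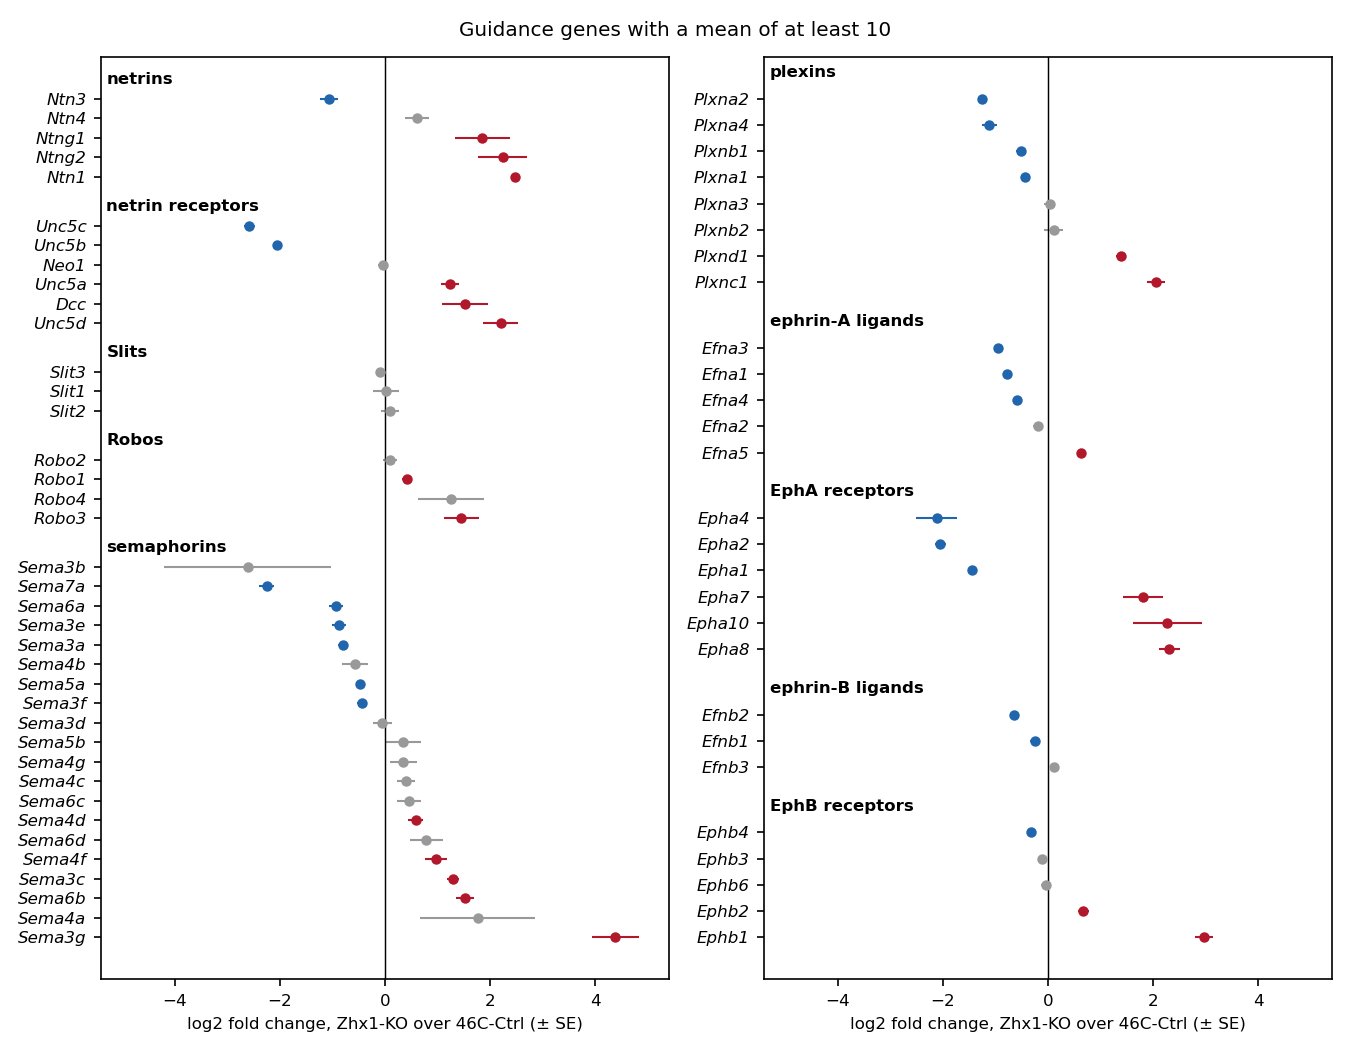
Log2 fold change of Zhx1-KO over 46C-Ctrl for the 65 guidance genes tested, by class, with bars of 1 standard error from limma; red points were called higher, blue lower, and grey were not called. Every class except the Slits holds called genes, and in 7 of the 10 classes the called members lie on both sides of 0.

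In bulk RNA, fewer cells of a type and less RNA per cell cannot be told apart, and markers of several cell types differed between the groups. Of the 6 cardiac progenitor markers 5 were lower and none higher, and the summed level of the listed genes was 7770 to 8527 in 46C-Ctrl and 1081 to 1159 in Zhx1-KO. Most of the control sum was Hand1, with a mean of 5774 in 46C-Ctrl and 198 in Zhx1-KO. The falls were uneven: Hand2 fell 5.71-fold, Mef2c 2.05-fold and Nkx2-5 1.76-fold, while Isl1 was not called (means of 209 and 179). Tbx5, needed for heart chamber formation, stood at 3.02, 1.01 and 1.76 in Zhx1-KO, after 66.3, 56.9 and 63.3 in the controls. All 8 primitive streak and early mesoderm markers were lower (summed 5919 to 6047 against 621 to 680), as were 9 of 10 endoderm markers (41926 to 47156 against 16846 to 18306) and 4 of the 5 pluripotency markers tested (4323 to 4350 against 1050 to 1198). Most of the endoderm sum was keratin, with means of 24023 for Krt8 and 12691 for Krt18 in 46C-Ctrl. Foxa2 was the endoderm marker not called (means of 717 and 660). Higher in Zhx1-KO were 9 of 10 endothelial markers (summed 1006 to 1113 in 46C-Ctrl, 5343 to 5661 in Zhx1-KO), 9 of the 10 neural markers tested (732 to 866 against 3535 to 3595) and 6 of the 8 paraxial mesoderm and somite markers tested (308 to 380 against 2205 to 2444). Pax6, a neural factor, was listed at 0 in all 3 control libraries and was the only gene of these lists at 0 throughout a group. Of the 5 neural crest markers tested, Foxd3 was lower and none was higher (summed 1004 to 1108 against 953 to 1105). Apart from the neural crest list, whose sums overlapped, the sums of these lists differed between the same groups that are compared below. Their part in the results was not tested.

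The promoters of 4 members are shown because the results on netrin receptors, plexins and EphB receptors turn on them. Each is the 250 bases before the RefSeq gene start in GRCm38.p6, written 5′ to 3′ on the gene's strand. Unc5b (chr10:60831582-60831831, minus strand) and Unc5c (chr3:141465314-141465563, plus strand) belong to netrin receptors that fell, and Plxnd1 (chr6:115995006-115995255, minus strand) and Ephb1 (chr9:102354694-102354943, minus strand) to receptors that rose. Capitals mark GGGCGG or its reverse complement CCGCCC, the core of the GC box bound by Sp factors.
Unc5b: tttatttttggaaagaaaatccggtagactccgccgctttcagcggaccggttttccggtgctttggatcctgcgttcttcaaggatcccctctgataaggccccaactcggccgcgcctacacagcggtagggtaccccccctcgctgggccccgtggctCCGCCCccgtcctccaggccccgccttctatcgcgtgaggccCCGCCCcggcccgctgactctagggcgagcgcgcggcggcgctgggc
Unc5c: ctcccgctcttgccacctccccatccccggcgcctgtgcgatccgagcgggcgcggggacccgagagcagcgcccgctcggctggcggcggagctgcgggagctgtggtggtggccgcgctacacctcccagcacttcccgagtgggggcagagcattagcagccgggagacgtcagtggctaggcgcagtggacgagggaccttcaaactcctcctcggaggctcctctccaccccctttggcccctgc
Plxnd1: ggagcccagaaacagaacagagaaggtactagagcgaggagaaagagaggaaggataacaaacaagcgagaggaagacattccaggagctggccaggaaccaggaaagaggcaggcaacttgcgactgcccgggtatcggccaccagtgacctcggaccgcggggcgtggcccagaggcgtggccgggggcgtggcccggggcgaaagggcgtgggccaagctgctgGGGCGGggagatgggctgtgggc
Ephb1: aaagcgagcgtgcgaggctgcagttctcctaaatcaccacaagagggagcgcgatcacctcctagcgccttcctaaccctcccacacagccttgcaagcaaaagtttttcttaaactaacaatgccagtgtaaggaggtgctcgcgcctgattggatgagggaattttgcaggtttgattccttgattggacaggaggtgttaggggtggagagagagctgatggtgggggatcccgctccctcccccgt
The window of Unc5b held 2 matches, that of Plxnd1 held 1, and those of Unc5c and Ephb1 held none. GC content was 66.8%, 71.2%, 64.8% and 54.0% for Unc5b, Unc5c, Plxnd1 and Ephb1. The GENCODE annotation used for positions starts Unc5c at 141465216, before its RefSeq start, so the Unc5c window lies inside the gene as placed there. RefSeq promoters were matched to 60 of the 70 guidance genes, and 43 of them (71.7%) held GGGCGG on either strand, beside 59.9% of the 11121 promoters of tested genes and 32.9% of all 27025. It stood in 12 of the 18 promoters of genes that rose and in 14 of the 18 of genes that fell. CANNTG, the E-box, which reads the same on both strands, stood in 46.7% of the guidance promoters and 56.6% of those of tested genes (66% of all). The T-box motif AGGTGT, searched on both strands, stood in 11.7% beside 9.5% (12% of all). CANNTG and AGGTGT can share 5 of their letters. The letters AGATAA, on either strand, stood in 3.33% of the guidance promoters beside 5.6% of those of tested genes (10.3% of all). A match is a description of the letters in these windows.

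Ntn1 rose while the most abundant netrin receptor, Unc5b, fell, and the class totals moved apart. Summed per kb, the 6 netrins went from 119 ± 7.17 in 46C-Ctrl to 429 ± 13.8 in Zhx1-KO and the 6 netrin receptors from 1792 ± 96.1 to 560 ± 26.3 (mean ± SD, n = 3 each). The netrin sum includes the membrane-anchored Ntng1 and Ntng2, which are not secreted, at 1.05% and 0.70% of it in 46C-Ctrl. Ntn1, the diffusible founding ligand of the family (chromosome 11, 68209364 to 68400823, minus strand), had 414, 424 and 438 normalized counts in 46C-Ctrl but 2421, 2441 and 2262 in Zhx1-KO. Its libraries fell into 2 tight and distant groups. The rise was 5.58-fold, a log2 fold change of 2.48 (SE 0.06, adjusted p = 2.41e-07 from limma). Many genes of chromosome 11 rose: 675 of the 1185 tested were called higher and 114 lower, with a median log2 fold change of 0.42, and Ntn1 lay 2.05 above that median. The part of the chromosome in the rise of Ntn1 was not tested.

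The other netrins were scarcer. Ntn3, a second secreted netrin, had 186, 179 and 133 in the 46C-Ctrl libraries and 70.5, 76.9 and 88.0 in those of Zhx1-KO (log2 fold change -1.06, SE 0.18, adjusted p = 0.00177). Every library labelled Zhx1-KO was below every control. The membrane-anchored netrin-G genes were near the floor of the counts in 46C-Ctrl. Ntng2 went from 3.90, 4.14 and 2.11 to 26.2, 18.2 and 15.0 (log2 fold change 2.24, adjusted p = 0.00487) and Ntng1 from 7.80, 4.14 and 17.9 to 25.2, 31.3 and 46.6 (1.85, adjusted p = 0.0198). The call of Ntng1 was lost without Zhx1-KO replicate 2 (adjusted p = 0.0512) or 3 (0.0741). Ntn4, a laminin-related netrin of basement membranes, had 60.9 ± 15.8 and 91.5 ± 11.9 and was not called (log2 fold change 0.60, adjusted p = 0.0578), although all its Zhx1-KO values exceeded the controls and without 46C-Ctrl replicate 2 the adjusted p was 0.0203.

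Unc5b, a repulsive netrin receptor also known from vessels (chromosome 10, 60762593 to 60831581, minus strand), was the most abundant guidance transcript per kb in the control cells. It had 10318, 9193 and 10000 normalized counts in 46C-Ctrl, against 2320, 2463 and 2314 in Zhx1-KO. No library came near the other group. The fall was 4.16-fold (log2 fold change -2.05, SE 0.06, adjusted p = 3.77e-07 from limma). Unc5c, its close relative (chromosome 3, 141465216 to 141834924, plus strand), had 1204, 1233 and 1226 in 46C-Ctrl but 239, 196 and 181 in Zhx1-KO. This was a 5.94-fold fall (log2 fold change -2.58, SE 0.11, adjusted p = 1.90e-06), again without overlap.

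The remaining netrin receptors did not fall. Unc5a went from 40.2 ± 1.95 to 96.5 ± 6.30 (log2 fold change 1.24, adjusted p = 0.00066) and Unc5d from 10.4 ± 3.75 to 50.1 ± 6.43 (2.20, adjusted p = 0.00104; SD, n = 3 each), so the 4 Unc5 genes divided evenly by direction. Dcc, the attractive netrin receptor, went from 9.22 ± 4.28 to 27.4 ± 7.89 (1.53, adjusted p = 0.0204), a call lost without Zhx1-KO replicate 1 (0.0758) or 3 (0.0502). Neo1, the neogenin receptor for netrins and repulsive guidance molecules, had 1259 ± 45.9 and 1226 ± 132 (log2 fold change -0.04, 95% interval -0.24 to 0.15, adjusted p = 0.697).

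The balance of receptor to ligand therefore differed. Per kb, Unc5b stood at 25.0, 21.7 and 22.9 times Ntn1 in the 46C-Ctrl libraries and at 0.961, 1.01 and 1.03 times Ntn1 in Zhx1-KO. The share of Unc5b in the summed netrin receptors went from 87.7% ± 0.530 to 67.5% ± 1.54, and that of Neo1, whose own level was not called, from 8.07% ± 0.324 to 25.1% ± 1.71 (SD, n = 3 each). Unc5b still exceeded every other netrin receptor per kb in each group.

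**Figure D2:**
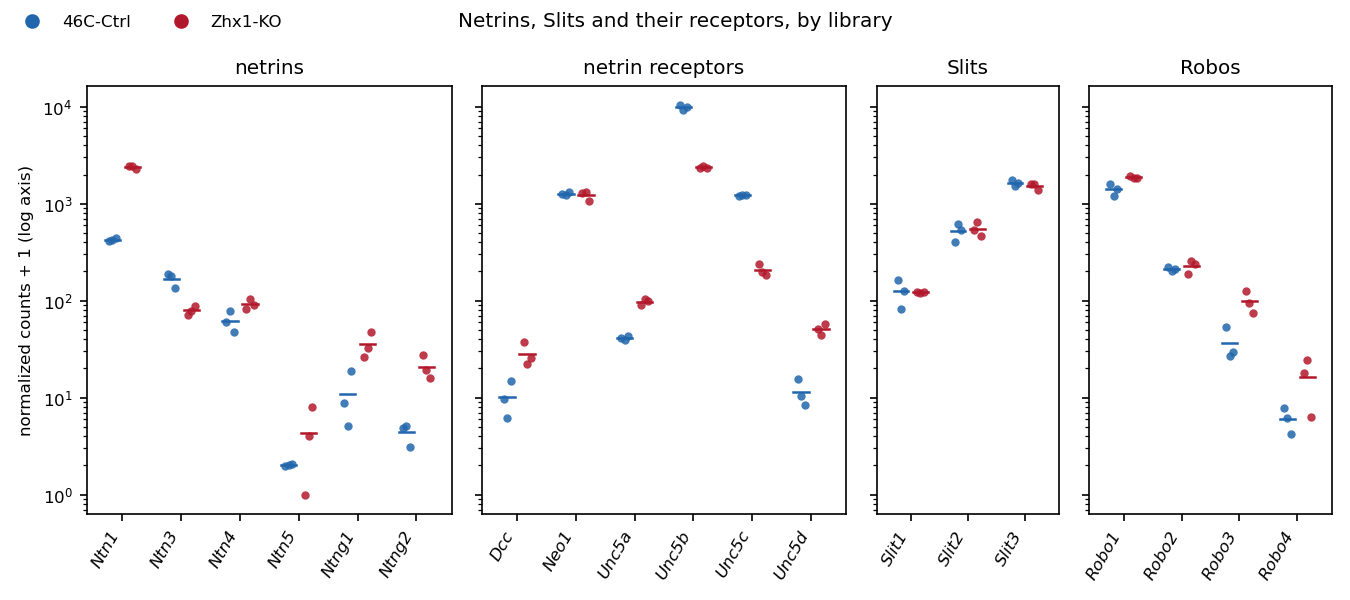
Values per library, as normalized counts plus 1 with a log axis, of each netrin, netrin receptor, Slit and Robo in the 3 libraries of 46C-Ctrl (blue) and the 3 of Zhx1-KO (red), with a bar at each group mean. Ntn1 rises from 426 to 2375 and Unc5b falls from 9837 to 2366 with no overlap, while the Slit points of the groups overlap.

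No Slit was called. Slit3, the highest of the 3 per kb (269 ± 18.0 and 251 ± 19.4), had a log2 fold change of -0.10 with a 95% interval of -0.28 to 0.08 (adjusted p = 0.309). The merged exons span 6067 bases in Slit3 and 25433 in Slit2, which widens their gap per kb. In normalized counts Slit3 had 1632 ± 109 and 1523 ± 118. Slit2 had 517 ± 107 and 548 ± 90.7 normalized counts, an interval of -0.31 to 0.50, and Slit1 had 123 ± 40.6 and 121 ± 2.32, an interval of -0.54 to 0.58 (SD, n = 3 each). Of the 3 intervals that of Slit3 was the narrowest and that of Slit1 the widest. Slit3 lies on chromosome 11 and was 0.52 below the median log2 fold change there.

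Of the 4 Robos 2 rose and none fell, beside 52.0% of all genes called in either direction. Robo3, a receptor of commissural axons, was the called member with the largest change (chromosome 9, 37415669 to 37433246, minus strand), with 52.7, 25.9 and 28.5 in 46C-Ctrl and 125, 93.0 and 73.1 in Zhx1-KO. The groups did not overlap, and the log2 fold change was 1.46 (SE 0.33, adjusted p = 0.00705). Robo1, the broadly used Slit receptor and 82.0% ± 1.11 of the class per kb in the controls, went from 1407 ± 206 to 1870 ± 53.4, a log2 fold change of 0.42 (adjusted p = 0.00999). Robo2 had 212 ± 8.33 and 227 ± 34.7 (adjusted p = 0.609). Robo4, an endothelial Robo whose gene starts at 37401897 and ends 553 bases before Robo3 on the opposite strand, had 5.06 ± 1.83 and 15.2 ± 9.14. It was not called (adjusted p = 0.127) with all libraries and was called without Zhx1-KO replicate 3 (0.0311), the one low value among its 17.1, 23.3 and 5.28.

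The semaphorins split into 5 that rose, 6 that fell and 9 that were not called of 20 tested, beside 52.0% of all genes called. Their sum per kb was 851 ± 57.8 in 46C-Ctrl and 818 ± 51.2 in Zhx1-KO (SD, n = 3 each), a difference below either SD, while the leading members were others. Sema6a had the highest level per kb in the controls and had rank 6 in Zhx1-KO, Sema7a went from rank 2 to 13, and Sema6b from rank 10 to 2. Sema4c headed the class in Zhx1-KO at 126 ± 31.9 per kb, after 93.9 ± 6.52 in 46C-Ctrl, although its difference was not called (adjusted p = 0.0857, and 0.0121 without Zhx1-KO replicate 1).

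The secreted class 3 semaphorins bind neuropilins or plexins directly. Sema3g, a ligand linked to vessels and Nrp2 (chromosome 14, 31217860 to 31230352, plus strand), showed the largest log2 fold change of all called guidance genes. It had 8.78, 2.07 and 4.22 in the 46C-Ctrl libraries and 140, 112 and 88.9 in those of Zhx1-KO. The control values are a few counts each, and every Zhx1-KO value was at least 10 times the highest of them. The log2 fold change was 4.39 (SE 0.45, adjusted p = 0.000149). Sema3c, a ligand of cardiac neural crest and outflow tract (chromosome 5, 17574281 to 17730268, plus strand), had 220, 184 and 193 in 46C-Ctrl, against 442, 523 and 509 in Zhx1-KO. Its groups were well apart, with a log2 fold change of 1.30 (SE 0.11, adjusted p = 5.28e-05).

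Sema3a, Sema3e and Sema3f fell. Sema3a, the classical collapsin that signals through Nrp1, went from 415 ± 23.5 to 238 ± 13.4 (log2 fold change -0.80, adjusted p = 0.000241). Sema3e, a ligand that binds Plxnd1 without a neuropilin, went from 443 ± 36.0 to 241 ± 36.4 (-0.88, adjusted p = 0.00096). Both genes lie on chromosome 5, 422710 bases apart, next to Sema3d, which had 107 ± 15.3 and 103 ± 16.5 and was not called (adjusted p = 0.839). Sema3f, an Nrp2 ligand, fell less, from 570 ± 29.7 to 421 ± 46.5 (-0.44, adjusted p = 0.00618; SD, n = 3 each). Sema3b had 152, 79.7 and 138 in 46C-Ctrl but 0, 63.7 and 115 in Zhx1-KO. An exact 0 beside such values can be a failed estimate, and the log2 fold change of -2.61 (adjusted p = 0.205) was -0.47 without the library listed at 0.

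Among the membrane-bound semaphorins, Sema7a, a lipid-anchored ligand of Plxnc1 and of integrin beta 1 (chromosome 9, 57940112 to 57962865, plus strand), had 360, 332 and 414 in the 46C-Ctrl libraries and 81.6, 82.9 and 66.9 in those of Zhx1-KO. The fall was 4.78-fold with no overlap (log2 fold change -2.24, SE 0.14, adjusted p = 1.36e-05). Sema6b, a transmembrane ligand of A-type plexins (chromosome 17, 56123085 to 56140343, minus strand), had 158, 105 and 116 in 46C-Ctrl, against 325, 399 and 360 in Zhx1-KO. The lowest Zhx1-KO value was over 2 times the highest control (log2 fold change 1.53, SE 0.17, adjusted p = 0.000218). Sema6a, which binds Plxna2 and Plxna4, went the other way, from 1014 ± 109 to 533 ± 89.3 (-0.93, adjusted p = 0.000706). Sema5a, which carries thrombospondin repeats, fell from 978 ± 49.5 to 703 ± 37.6 (-0.48, adjusted p = 0.000831).

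Sema4d, the ligand of Plxnb1, rose from 374 ± 59.8 to 561 ± 69.9 (log2 fold change 0.59, adjusted p = 0.00962) and Sema4f from 37.9 ± 5.60 to 74.8 ± 6.12 (0.97, adjusted p = 0.00501; SD, n = 3 each). The other uncalled semaphorins were Sema4b, Sema4g, Sema5b, Sema6c and Sema6d, with log2 fold changes from -0.57 to 0.79, and Sema4a. Sema4a was listed at 0 in 46C-Ctrl replicate 2 and at 16.6 and 17.9 in the other controls, with 30.2, 28.3 and 13.2 in Zhx1-KO, and its log2 fold change of 1.76 was 0.37 without the library at 0. Leaving out 46C-Ctrl replicate 1 gave calls for Sema4b (-0.77, adjusted p = 0.0390), Sema6c (0.70, 0.0167) and Sema6d (1.12, 0.00896), and the fit with the replicate number as a block also called Sema6c and Sema6d (0.0287 each).

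**Figure D3:**
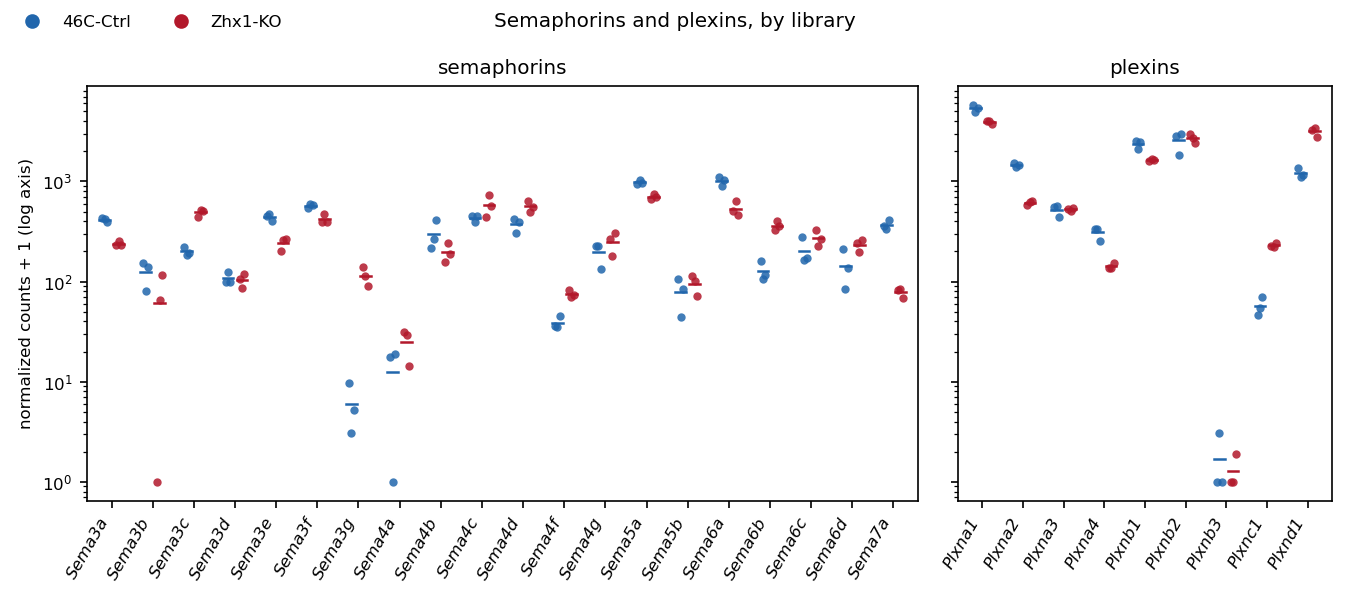
Values per library, as normalized counts plus 1 with a log axis, of the 20 semaphorins and 9 plexins in each library of 46C-Ctrl (blue) and Zhx1-KO (red), with a bar at each group mean; a point at 1 is a listed 0. Sema3g, Plxnc1 and Plxnd1 lie higher in all 3 Zhx1-KO libraries and Sema7a and Plxna2 lower.

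The plexins, the semaphorin receptors, summed per kb to 1520 ± 161 and 1528 ± 83.0 (SD, n = 3 each), a difference below either SD, while the shares of single plexins differed. Plxnd1, the receptor of Sema3e with a known place in vessel and outflow tract patterning (chromosome 6, 115954811 to 115995005, minus strand), had 1366, 1095 and 1158 in 46C-Ctrl but 3232, 3418 and 2799 in Zhx1-KO. All 3 Zhx1-KO values were over 2 times any control. The rise was 2.61-fold (log2 fold change 1.39, SE 0.10, adjusted p = 2.92e-05). Of the 216 genes tested between 110 and 140 Mb of chromosome 6, where Plxnd1 lies, 123 were lower and 21 higher, with a median of -0.58. This stretch was not in the plan and was taken as a shifted one in these data. Plxnd1 lay 1.96 above that median, and the part of the region in its level was not tested. Plxnd1 was 10.9% ± 0.664 of the plexins per kb in 46C-Ctrl and 28.2% ± 1.43 in Zhx1-KO, where it stood level with Plxna1, which had been 3.61 ± 0.163 times as high per kb in the controls (1.01 ± 0.0657 in Zhx1-KO; SD, n = 3 each).

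Plxnc1, the receptor of Sema7a (chromosome 10, 94790866 to 94944835, minus strand), had 44.9, 52.8 and 68.5 in the 46C-Ctrl libraries and 226, 221 and 241 in those of Zhx1-KO. Its 4.14-fold rise (log2 fold change 2.05, SE 0.18, adjusted p = 6.54e-05) stood opposite to the fall of its ligand. In the same way Plxnd1 rose while Sema3e fell. Not every semaphorin moved against Plxnd1: Sema3c, the outflow tract ligand above, rose as it did (log2 fold change 1.30, adjusted p = 5.28e-05 from limma). These are values side by side, and none was tested as a pair.

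The A-type plexins fell or were not called. Plxna2 (chromosome 1, 194618218 to 194816869, plus strand) had 1523, 1400 and 1462 in 46C-Ctrl, against 577, 616 and 632 in Zhx1-KO, with no overlap (log2 fold change -1.26, SE 0.06, adjusted p = 4.59e-06). Plxna4, which pairs with neuropilin in sensory axons (chromosome 6, 32144268 to 32588192, minus strand), had 334, 337 and 254 and then 136, 136 and 151 (-1.12, SE 0.14, adjusted p = 0.000381). Its groups were also separate. Plxna1, the most abundant plexin per kb in both groups, fell from 5388 ± 423 to 3939 ± 154 (-0.45, adjusted p = 0.000863). Plxna3 had 520 ± 66.7 and 527 ± 16.1 (adjusted p = 0.835). Of the B-type plexins, receptors of class 4 semaphorins, Plxnb1 fell from 2375 ± 242 to 1645 ± 42.0 (-0.52, adjusted p = 0.000938) and Plxnb2 had 2563 ± 627 and 2700 ± 253 (0.10, 95% interval -0.30 to 0.51). The control spread of Plxnb2 came mostly from 46C-Ctrl replicate 2, at 1846 against 2839 and 3004.

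All 6 EphA receptors tested were called, 3 in each direction, beside 25.6% higher and 26.4% lower over all genes. Epha10 among them passed the filter only through Zhx1-KO, with means of 5.77 in 46C-Ctrl and 24.6 in Zhx1-KO. Epha1, Epha2 and Epha4 fell and Epha7, Epha8 and Epha10 rose, while Epha3, which had a control mean of 17.5 and was listed at 0 in every Zhx1-KO library, was below the filter and not tested. The class sum per kb went from 797 ± 57.3 to 318 ± 42.3 (SD, n = 3 each). Epha2, a receptor of epithelia and early embryo (chromosome 4, 141301240 to 141329384, plus strand), had 1250, 1138 and 1250 in 46C-Ctrl but 255, 312 and 312 in Zhx1-KO (log2 fold change -2.05, SE 0.10, adjusted p = 3.64e-06). Epha1 (chromosome 6, 42358487 to 42373268, minus strand) had 1064, 1041 and 1031 and then 390, 400 and 363 (-1.44, SE 0.07, adjusted p = 3.06e-06). Both fell in every library by more than the spread within either group. Epha4, which binds ephrins of both types (chromosome 1, 77367185 to 77515088, minus strand), had 2187, 2256 and 1384 in the 46C-Ctrl libraries and 226, 635 and 574 in those of Zhx1-KO. Its replicates were uneven in each group, yet the groups did not overlap (-2.12, SE 0.38, adjusted p = 0.0025).

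Epha7, a receptor of boundaries in neural tissue and mesoderm (chromosome 4, 28813131 to 28967499, plus strand), had 294, 97.3 and 252 in 46C-Ctrl, against 574, 749 and 723 in Zhx1-KO. Replicate 46C-Ctrl 2 was again the odd value, and the log2 fold change of 1.81 (SE 0.38, adjusted p = 0.00495) was 1.31 without it (adjusted p = 0.000318). Epha8, a receptor of midbrain axons (chromosome 4, 136929419 to 136956816, minus strand), had 24.4, 24.8 and 21.1 in 46C-Ctrl but 131, 130 and 100 in Zhx1-KO. All 3 Zhx1-KO values were at least 4 times any control (2.31, SE 0.21, adjusted p = 7.15e-05). Epha10, a receptor without an active kinase, had 4.88, 11.4 and 1.05 and then 26.2, 21.2 and 26.4 (2.26, adjusted p = 0.0216). At such low counts the value moved to 1.58 without 46C-Ctrl replicate 3 and to 2.88 without replicate 2, and the call was lost without any 1 of the Zhx1-KO libraries (adjusted p 0.0510 to 0.0649). As a share of the EphA receptors per kb, Epha7 went from 2.73% ± 1.31 to 21.7% ± 0.515 and Epha4 from 30.0% ± 5.88 to 18.1% ± 6.73.

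Of the 5 EphB receptors 2 rose and 1 fell, beside 52.0% of all genes called in either direction. The class summed per kb to 834 ± 69.0 and 785 ± 36.6. Ephb1, a receptor of retinal and other axons (chromosome 9, 101922128 to 102354693, minus strand), had 52.7, 42.4 and 35.9 in the 46C-Ctrl libraries and 344, 364 and 327 in those of Zhx1-KO. The rise was 7.90-fold, the largest among the receptors called here with means over 10 in each group (log2 fold change 2.97, SE 0.17, adjusted p = 8.13e-06). Ephb2, whose gene ends 93430 bases from Epha8 on chromosome 4, rose from 629 ± 70.6 to 998 ± 99.9 (0.67, adjusted p = 0.00127). Ephb4, the venous receptor of Efnb2 and 60.5% ± 0.877 of the class per kb in the controls, fell from 2340 ± 186 to 1856 ± 94.0 (-0.33, adjusted p = 0.00598). Ephb3 had 1336 ± 146 and 1234 ± 67.5 and the kinase-dead Ephb6 had 274 ± 9.08 and 267 ± 20.2, and neither was called (adjusted p = 0.327 and 0.749; SD, n = 3 each).

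No tested ephrin changed by as much as 2-fold, and their log2 fold changes ran from -0.95 to 0.62. Efna3, a lipid-anchored ligand of EphA receptors and the ephrin-A with the largest change (chromosome 3, 89313899 to 89322965, minus strand), had 823, 744 and 786 in 46C-Ctrl, against 427, 406 and 383 in Zhx1-KO. Its groups were far apart relative to their spread (-0.95, SE 0.08, adjusted p = 3.99e-05). Efna1, Efna3 and Efna4 lie side by side on chromosome 3 from 89271733 to 89338028, with gaps of 32756 and 10424 bases, on the same strand, and all 3 fell. Efna1 went from 683 ± 46.2 to 399 ± 30.5 (-0.77, adjusted p = 0.000235) and Efna4, the highest ephrin-A per kb in both groups, from 940 ± 78.1 to 623 ± 16.9 (-0.59, adjusted p = 0.000453). Efna5, elsewhere in the genome on chromosome 17, rose from 404 ± 14.5 to 623 ± 37.2 (0.62, adjusted p = 0.000339; SD, n = 3 each). Efna2 had 533 ± 42.5 and 464 ± 17.5 and was not called (-0.20, adjusted p = 0.0798, and 0.0495 without 46C-Ctrl replicate 3).

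Efnb2, the transmembrane ephrin of arteries (chromosome 8, 8617434 to 8661242, minus strand), was the ephrin-B with the largest change. It had 3068, 2678 and 3070 in 46C-Ctrl but 1808, 2008 and 1772 in Zhx1-KO, all lower than any control (-0.66, SE 0.08, adjusted p = 0.00025). Efnb1 went from 1329 ± 119 to 1117 ± 93.4 with overlapping libraries (-0.25, adjusted p = 0.0450), and this call was lost in 9 of the 14 other settings, with adjusted p up to 0.156. Efnb3 had 855 ± 37.3 and 927 ± 67.6 (0.12, adjusted p = 0.220) and was called higher after quantile normalization (0.0281). It lies on chromosome 11 and was 0.31 below the median log2 fold change there. Per kb, Efnb2 was 39.6% ± 1.05 of the ephrin-B ligands in 46C-Ctrl and 30.7% ± 0.707 in Zhx1-KO, where Efnb1 and Efnb3 stood above it.

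**Figure D4:**
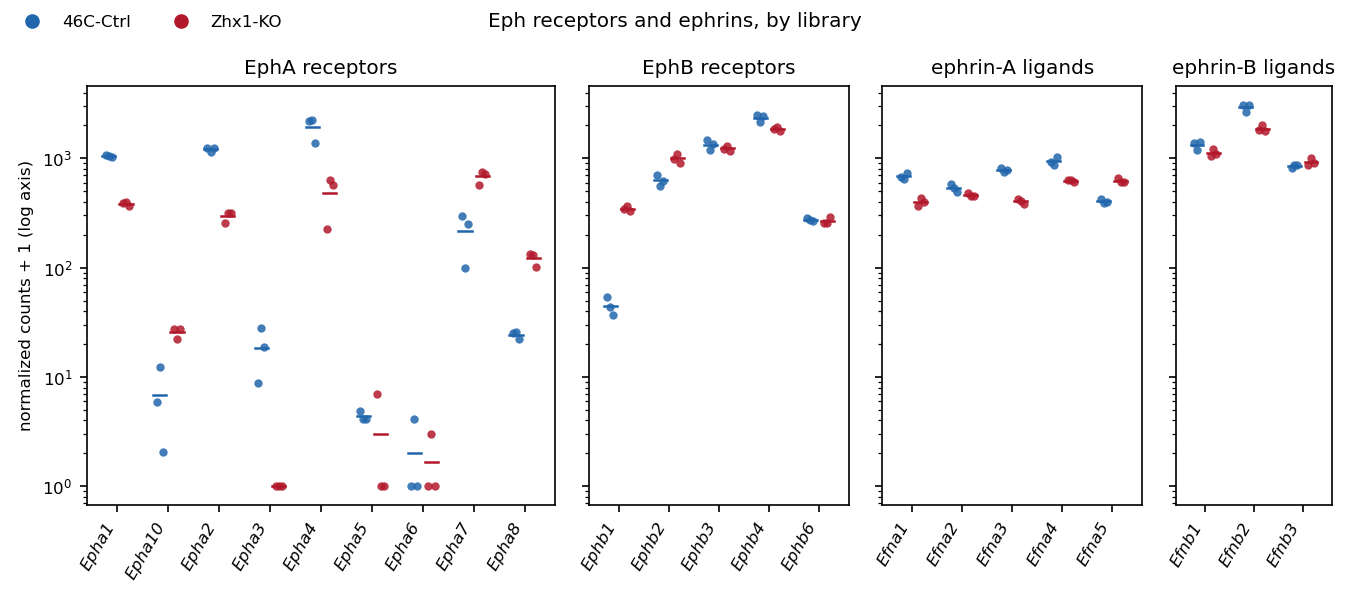
Values per library, as normalized counts plus 1 with a log axis, of the Eph receptors and ephrins in each library of 46C-Ctrl (blue) and Zhx1-KO (red), with a bar at each group mean; a point at 1 is a listed 0. The EphA receptors move apart in both directions, while the ephrins of the groups lie within 2-fold of each other.

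Of the untested members, Epha3 had 7.80, 26.9 and 17.9 in 46C-Ctrl and was listed at 0 in every Zhx1-KO library. Epha5, Epha6, Ntn5 and Plxnb3 had at most 7.04 in any library.

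**Figure D5:**
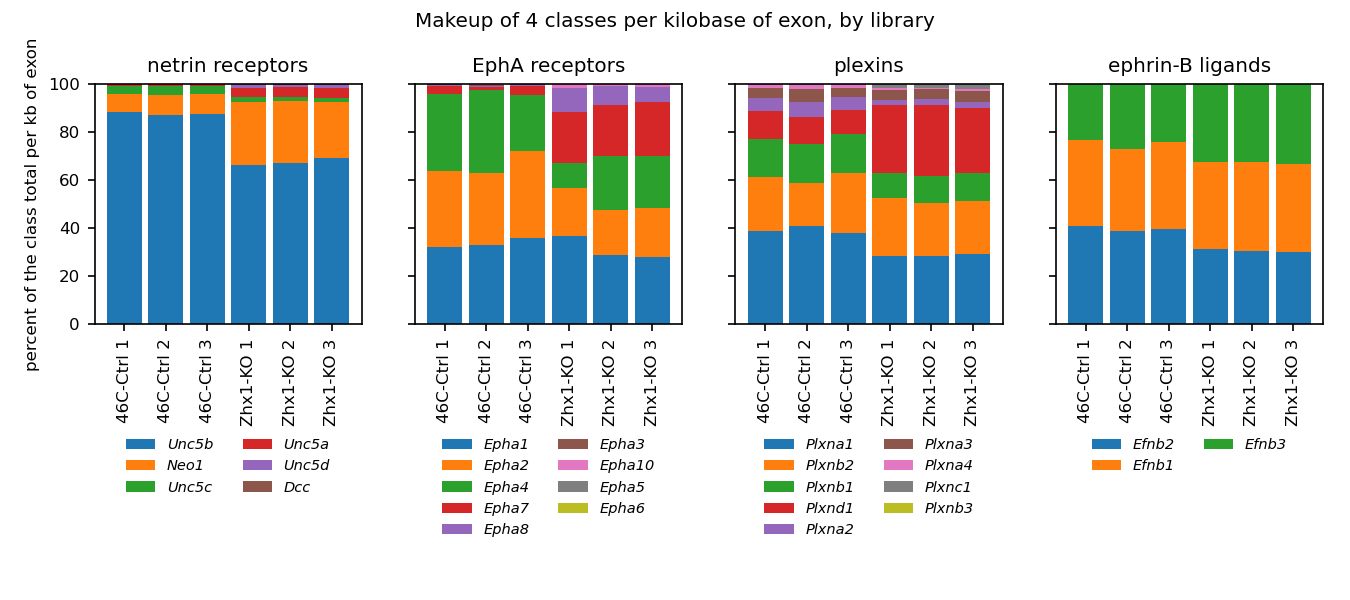
Each member's percent of its class total per kb of exon, stacked to 100% for each library, in the netrin receptors, EphA receptors, plexins and ephrin-B ligands. In Zhx1-KO, Neo1 takes 25.1% of the netrin receptors, Epha7 21.7% of the EphA receptors and Plxnd1 28.2% of the plexins, against 8.07%, 2.73% and 10.9% in 46C-Ctrl.

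Co-receptors and other ligands of these pathways were read from a fixed list of 35 genes, of which 34 were in the table and 29 were tested. Of these 13 rose, 6 fell and 10 were not called, beside 25.6% higher and 26.4% lower over all genes, with a median log2 fold change of 0.23 (0.01 over all genes). Nrp1, the neuropilin through which Sema3a and VEGF act, had the smallest adjusted p of the list. It had 4006, 4056 and 4230 normalized counts in the 46C-Ctrl libraries and 461, 456 and 411 in those of Zhx1-KO, a 9.26-fold fall (log2 fold change -3.21, SE 0.06, adjusted p = 1.21e-07 from limma). No called guidance gene fell by as much. The other neuropilin, Nrp2, went the opposite way, from 953 ± 209 to 1613 ± 125 (log2 fold change 0.78, adjusted p = 0.00297 from limma). Kdr, the VEGF receptor that also partners with plexins and stands among the endothelial markers above, rose from 631 ± 20.8 to 2079 ± 112 (1.72, adjusted p = 1.13e-06). Flrt3, an Unc5 ligand of the cell surface, fell from 2073 ± 96.0 to 946 ± 68.9 (-1.13, adjusted p = 1.18e-05). This was the direction of Unc5b and Unc5c and opposite to that of Unc5a and Unc5d. Itgb1, the integrin chain bound by Sema7a, fell from 10292 ± 457 to 6333 ± 214 (-0.70, adjusted p = 2.61e-05; SD, n = 3 each).

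Of 76 cytoplasmic effectors, which carry guidance signals to the cytoskeleton, 74 were tested, 20 rose, 32 fell and 22 were not called, with a median of -0.18. The 20 that rose are near the 25.6% of all genes called higher, and 26.4% of all genes were called lower. Grb10, an adaptor that lies on chromosome 11 where most called genes rose, fell from 1673 ± 122 to 388 ± 35.8 (log2 fold change -2.11, adjusted p = 2.09e-06). Vasp, an actin regulator, fell from 2887 ± 105 to 1458 ± 30.5 (-0.98, adjusted p = 4.59e-06), and Mical3, of a family of plexin-linked oxidoreductases, from 1226 ± 138 to 440 ± 7.33 (-1.47, adjusted p = 1.15e-05). Crmp1, a collapsin response mediator, rose from 428 ± 44.8 to 1133 ± 67.6 (1.40, adjusted p = 1.55e-05; SD, n = 3 each).

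No source used here ties the libraries to separate cultures beyond the paper's statement of independent experiments, so the p-values rest on a between-library spread that may be technical. A single knockout line was sequenced, so the edit at Zhx1 and other features of that line cannot be told apart.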

How the data were processed

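PolyA RNA of 6 libraries of CP cells was compared between 46C-Ctrl and Zhx1-KO, 3 each. Per the paper's methods, cutadapt 1.18 trimmed the reads, HISAT2 2.1.0 aligned them to GRCm38 and StringTie 1.3.4d gave FPKM (not used here). Cufflinks and DESeq2 stand in the submitters' processing notes. The deposited table holds another quantity, a signal per gene: counts divided by 1 factor per library, from a counting program not given in the sources used here. Each value was a whole multiple of a library step of 0.880 to 1.05 (within 0.01 of a step, 100% of values).

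From there, the limma package (3.58.1, R 4.3.3) tested genes averaging 10 or more (mean trend, group as the term, pseudocount 1, Benjamini-Hochberg over every tested gene), a step tested on simulated data. Count tests were not run, because a check of the units did not accept steps of about 1.01, in Zhx1-KO 1 and 2, as recovered whole reads. The depth and the chi-square per gene given above nevertheless count in these steps. Exon lengths and positions came from GENCODE annotation of GRCm38, and promoters from RefSeq (GRCm38.p6). Members in full are called genes beyond 2-fold averaging 100 or more in 1 group, without overlap, and the largest called change of each class. Of the co-receptors and effectors, the 4 with the smallest adjusted p are named, and Nrp2 is given beside Nrp1. The 4 promoters were chosen after values were seen. The members and lists were chosen with earlier results of these data known. Chromosome 11 and the stretch of chromosome 6 were not in the plan and were taken as shifted in these data.

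The titles share replicate numbers. Deviations from the group means of same-numbered libraries correlated at 0.00419, -0.0690 and 0.000587.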

Additional observations from a re-analysis of the deposited data

How the results depend on the processing

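Of the 43 called guidance genes, 39 were called in the same direction in each of the 14 other settings of the fit that tested them (Unc5d and Ntng2 were not tested at a mean of at least 50), and Efnb1, Epha10, Dcc and Ntng1 lost their call in at least 1. The settings were pseudocounts of 0.5 and 10, no filter on low values, a mean of at least 50, quantile normalization, TMM rescaling, limma without trend, the replicate block and each library left out. Over them the guidance genes called higher numbered 16 to 23 and those called lower 21 to 22. With each library left out, the ranges were 19 to 23 higher and 21 to 22 lower, and over all genes 3213 to 3757 higher and 3476 to 3892 lower.

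Requiring 2-fold or more besides the adjusted p left 1493 genes higher and 1207 lower, 9 guidance genes lower, 4 co-receptors and other ligands higher and 3 lower, and 8 cytoplasmic effectors higher and 6 lower. The Zhx1 value ran from -0.70 to -0.028 with each library left out, and only without 46C-Ctrl replicate 2 was it called.

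The sign turned in 8 uncalled genes. After quantile normalization the log2 fold change of Slit1 was -0.075 and that of Neo1 0.059. With each library left out the values ran from -0.24 to 0.25 for Slit1, -0.079 to 0.23 for Slit2, -0.0029 to 0.22 for Robo2, -0.10 to 0.048 for Neo1, -0.082 to 0.09 for Plxna3, -0.12 to 0.23 for Plxnb2, -0.16 to 0.075 for Sema3d and -0.014 to 0.62 for Sema5b. The cause was not tested.

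The replicate block gave 23 guidance genes higher and 21 lower: Sema6c and Sema6d were gained, Efnb1 was lost (adjusted p = 0.0910 from limma), and no other guidance call changed. The replicate numbers were not taken as a pairing. The planned edgeR and DESeq2 fits were not run. Quantile normalization and TMM moved the median of all genes by -0.01 and 0.01. Genes with a few counts per library, such as the netrin-G genes, Dcc, Epha10 and Sema3g in 46C-Ctrl, have folds limited by depth.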
